A study of Mus musculus with 9 samples.

Results

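The potassium channel genes of the mouse hippocampus were examined on Agilent one-colour gene arrays. They were taken as every gene whose name on the array begins with Kcn, apart from Kcnj13 and Kcne2, which are genes of the choroid plexus, the epithelium that makes cerebrospinal fluid. Of the 96 names left, 85 had a probe that stood well above background in all 3 mice of 1 genotype or more, out of 21905 gene names that passed the same filter. Each gene is given by its brightest probe. The other 11 names, among them Kcna10, Kcne1, Kcnj1, Kcnk18, Kcnk5, Kcnk7, Kcnmb3, Kcnmb4os1, Kcnn1 and Kcnv2, were not well above background in any genotype and were not tested. At the edge of this filter, Kcnn4, Kcne4 and Kcng3 entered through the CRL arrays alone, and the brightest array of each read -5.41, -4.51 and -6.02 on the scale explained below. Kcnk5 and Kcnk7 lay just outside, with 2 of 3 arrays well above background in IF1-KO and in CRL mice and highest readings of -5.80 and -5.76.

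Hippocampal RNA came from 9 male C57BL/6J mice aged 9 months, 3 per genotype, with 1 mouse per array on 3 slides. IF1 is the inhibitor protein of the mitochondrial ATP synthase. IF1-KO mice lost exon 3 of the IF1 gene through Cre driven by the Camk2a promoter, which acts mostly in excitatory forebrain neurons, so other cells of the hippocampus kept the gene. IF1-TG mice carried human IF1 under a tetracycline-regulated element together with a transactivator driven by the same promoter. CRL mice were the controls. For its cultures the study used Cre carriers with intact IF1 alleles as controls of IF1-KO, and wild type or transactivator-only embryos as controls of IF1-TG, but the alleles of the CRL mice put on arrays are not given in the sources used here. Both models change IF1 in a class of neurons from early life onwards, and bulk hippocampal RNA also holds glial and vascular transcripts. IF1-TG replicates 1 and 2 shared slide 1. IF1-TG replicate 3 was on slide 2 with IF1-KO replicate 1 and CRL replicates 1 and 2, and the other 2 IF1-KO mice were on slide 3 with CRL replicate 3.

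Genotype names are those of the labels. The probe of Atpif1, the gene of IF1, read 6.44 in the mouse labelled IF1-KO replicate 1, against 5.20 and 5.53 in the other 2 labelled IF1-KO and 6.19 to 6.34 in CRL mice. IF1-TG mice read 6.39 to 6.51, a difference from CRL of 0.16 (SE 0.27) that did not pass a threshold, and whether this mouse probe reads the human transgene was not determined. The array labelled IF1-KO replicate 1 therefore showed no reduction of the targeted gene, and differences from IF1-KO of the members past a threshold are also given without it. Family values are from all 9 arrays. All 8 markers of hippocampal excitatory neurons were well above background, and arrays of the same genotype correlated between 0.983 and 0.992. Probe spots well above background were fewest in IF1-TG mice, at 67.4% to 70.4%, against 71.9% to 73.6% for IF1-KO and 73.0% to 75.6% for CRL. The summed signal of 8 choroid plexus markers ranged from 2.18 to 97.9 in IF1-KO, 3.39 to 121.0 in CRL and 5.07 to 185.9 in IF1-TG mice. It was therefore very uneven within each genotype.

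Potassium channels let potassium leave or enter the cell and so set the resting potential, shape the action potential and limit repetitive firing. Voltage-gated (Kv) channels are tetramers of alpha subunits that open on depolarization, and their beta, KChIP and KCNE partners change gating and traffic. Calcium- and sodium-activated channels follow activity, inward rectifiers hold the resting potential and respond to G proteins or to ATP, and two-pore domain channels carry leak current. In the hippocampus, Kv4 channels make the dendritic A-type current, Kv2 channels a somatic delayed rectifier, Kv3 channels the fast repolarization of fast-spiking interneurons, and KCNQ channels the M current that muscarinic receptors suppress.

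With all 9 arrays and no slide term, few members passed the thresholds between genotypes, about as often as all genes did. The counts were higher without IF1-KO replicate 1 and with a slide term, and those are given after the genes. A member was called when its fold change reached 1.5 and its unadjusted limma P was below 0.05. These thresholds follow the methods of the study. A level is the log2 signal of a probe minus the 75th percentile of all gene probes on that array, and a difference is a difference of mean log2 levels, given with its standard error (SE). Levels of different probes cannot be compared. Kcnf1, Kcnj15 and Kcnq1 were among the members past both thresholds. Their probes are shown because the probe fixes the transcript stretch measured, and for Kcnf1 and Kcnq1 a second probe read another stretch or nearly the same one. Each probe has 60 bases, of which the first 30 are printed, 5′ to 3′, from the deposited files. Capitals mark bases that another probe of the same gene shares.
Kcnf1, brightest probe (NM_201531): atactcagagatccaaagtatctttttgct
Kcnf1, dimmer probe (NM_201531): ttcattcccctgctgacagaggagaagcat
Kcnj15, only kept probe (NM_019664): cataatgcctccacgacatgagcccctcta
Kcnq1, brightest probe (XM_006508488): GTATGATCTTGATTGAGAGACTTTTCCAAA
Kcnq1, dimmer probe (NM_008434): aatttcgtaGTATGATCTTGATTGAGAGAC

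On mm9, the Kcnf1 probes lie on the minus strand at chr12:17179527-17179586 (brightest) and chr12:17181507-17181566 (dimmer). The Kcnj15 probe lies on the plus strand at chr16:95521158-95521217. The Kcnq1 probes lie on the plus strand at chr7:150612896-150612955 (brightest) and chr7:150612887-150612946 (dimmer), and they share 51 bases, so that both read nearly the same stretch. Whether a probe falls in a coding exon or an untranslated region was not determined, because no mm9 gene models were used here. The brightest probes of 81 of the 85 members lie on the chromosome and, where RefSeq promoter entries give it, the strand of the gene. The probe of Kcnj14 maps to another chromosome than its gene, that of Kcnh8 to the other strand, and that of Kcnn4 has no position, so these members are named as the array names them.

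Between mice labelled IF1-TG and IF1-KO, Kcnf1 and Kcnj15 were lower in IF1-TG mice. In all, 3 of 85 members were called, 3.53% against 3.71% of all 21905 genes. No member passed Benjamini-Hochberg adjustment over all probes (limma, adjusted P of 0.661 to 0.698 for the 3), and neither did any other gene. At an unadjusted P below 0.05 alone there were 6 members, 7.06% against 6.91% of all genes, of which 5 were lower (5.88% against 3.19%). The median difference of the members was -0.02 against 0.01 for all genes, with 38 members above 0 and 47 below (44.7% above 0, against 52.4% of all genes). The arrays of the genotypes did not overlap for 12 members, 14.1% against 13.5% of all genes. The share of members called was thus near the background share and is no result about potassium channels as a group.

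**Figure D1:**
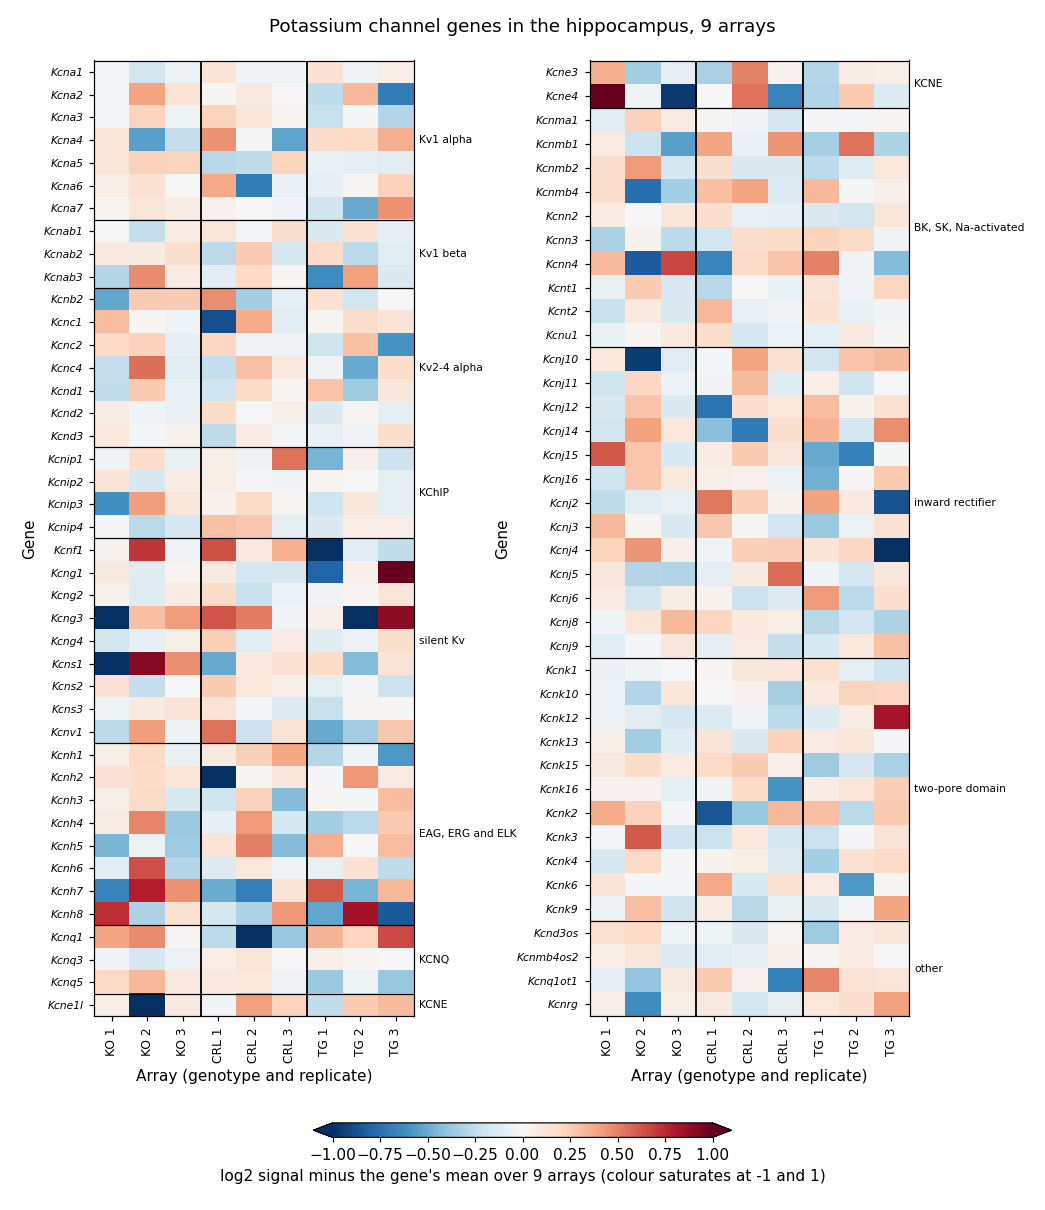
Each row is one of the members shown and each column an array; colour gives the log2 signal minus the member's mean over the 9 arrays, members are grouped by family (horizontal lines) and arrays by genotype (vertical lines), with saturation at -1 and 1. No family forms a block of one colour within a genotype, and strong colours sit in single arrays, such as Kcnj4 and Kcng1 on IF1-TG replicate 3 and Kcnj10 on IF1-KO replicate 2.

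Kcnf1 encodes Kv5.1, an electrically silent subunit that forms no channel alone and modifies Kv2 channels. Its brightest probe read 0.22, 0.90 and 0.15 in IF1-KO mice, 0.83, 0.29 and 0.55 in CRL mice and -1.26, 0.08 and -0.06 in IF1-TG mice. All 3 IF1-TG arrays lay below the other 6, but IF1-TG replicate 1 was far lower than its 2 partners. The difference was -0.84 (SE 0.36, unadjusted P = 0.049) against IF1-KO and -0.97 (SE 0.36, unadjusted P = 0.027) against CRL, a fold of 1.78 and 1.95. Without IF1-TG replicate 1 these became -0.41 and -0.54, and without IF1-KO replicate 1 the difference from IF1-KO was -0.94. None of these 3 passed the P threshold. The call against IF1-KO was lost in 13 of 19 alternatives, among them the omission of any IF1-KO or CRL array. The call against CRL was lost in 5 of 19. The dimmer probe gave -0.31 and -0.10, neither past a threshold, and IF1-TG replicate 1 was again its lowest array, at -3.14. On that array the summed signal of 5 interneuron markers was 30.9, against 44.6 to 51.6 on the other 8 arrays, and the choroid plexus sum was the highest of the 9. Sst, the interneuron marker with the highest signal, read 3.91 there and 4.75 to 5.02 on the others. Npy and Gad2 were also lowest on that array, while Pvalb and Vip were not. The part of these cell types in the Kcnf1 value was not tested.

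Kcnj15 encodes Kir4.2, an inward rectifier subunit. Its probe was dim, at -5.52, -5.86 and -6.29 in IF1-KO mice, -6.07, -5.88 and -6.03 in CRL mice and -6.64, -6.82 and -6.15 in IF1-TG mice, and it was not well above background on any IF1-TG array. The IF1-TG arrays overlapped those of IF1-KO and not those of CRL. On these readings its mean level was at least 1.53-fold lower in IF1-TG mice when set against IF1-KO (measured means -6.54 and -5.89, unadjusted P = 0.020, limma with Benjamini-Hochberg adjusted P = 0.661). Against CRL it was at least 1.43-fold lower (mean of CRL -5.99, unadjusted P = 0.041). The probe entered the filter through IF1-KO and CRL mice, where all arrays were above background, so that a lower reading in IF1-TG was in part fixed by the filter, and the call and its P carry little weight. The bound sets each IF1-TG array at the higher of its own reading and the lowest signal among probes well above background. It holds for these means alone and leaves out the spread between mice, and some differences given below are smaller. Without IF1-KO replicate 1, the highest array, the measured difference from IF1-KO went to -0.46 and no longer passed. This call was lost in 7 of 18 alternatives: also when IF1-KO replicate 2 or either of IF1-TG replicates 1 and 2 was omitted, with slide as a fixed block, under quantile normalization (-0.57) and under normexp with quantile normalization, where the difference was -0.24 from IF1-KO and -0.18 from CRL.

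**Figure D2:**
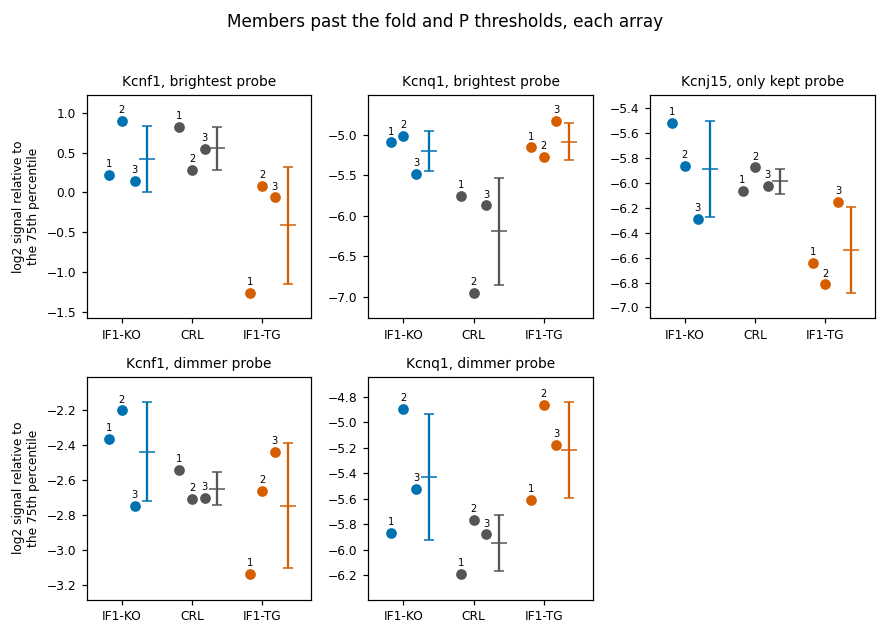
Log2 signal relative to the array's 75th percentile (vertical axes, 1 scale per panel) by genotype for Kcnf1, Kcnq1 and Kcnj15, with the dimmer probes of the first pair in the lower row; points are single arrays marked with their replicate number, bars the mean and SD of 3 arrays. The dimmer probe of Kcnq1 keeps the direction of the brightest one, while that of Kcnf1 overlaps between genotypes.

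A further 3 members passed the P threshold but not the fold in this comparison, and all 3 were lower in IF1-TG mice. Kcnq5, a subunit of the M current, read -0.34, -0.21 and -0.44 in IF1-KO, -0.45, -0.44 and -0.57 in CRL and -0.91, -0.58 and -0.92 in IF1-TG mice. Its difference was -0.47 (SE 0.13, unadjusted P = 0.0065) against IF1-KO and -0.32 (SE 0.13, unadjusted P = 0.041) against CRL, with every IF1-TG array below the other 6, by a narrow margin for replicate 2. A second, dimmer Kcnq5 probe gave -0.84 and -0.49, neither past the P threshold. Without IF1-KO replicate 1 the Kcnq5 difference from IF1-KO was -0.48 (SE 0.16). Kcnk15 encodes TASK-5, a two-pore domain subunit that passes no current when expressed alone. Its dim probe read -5.07, -4.97 and -5.07 in IF1-KO, -4.97, -4.91 and -5.10 in CRL and -5.51, -5.32 and -5.48 in IF1-TG mice, 2 of the IF1-TG arrays being well above background. The probe could thus not enter the filter through IF1-TG mice, and a lower reading there was in part fixed by the filter. The IF1-TG arrays stood clear of the other 6, with differences of -0.40 (SE 0.11, unadjusted P = 0.0062) and -0.45 (SE 0.11, unadjusted P = 0.0033). Under normexp background correction followed by quantile normalization they became -0.02 and -0.12, and without IF1-KO replicate 1 the first was -0.42 (SE 0.13).

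Kcnj8 encodes Kir6.1, the pore of the ATP-sensitive potassium channel of pericytes and vascular muscle, where it assembles with the sulfonylurea receptor SUR2 encoded by Abcc9. Kcnj8 read -4.44, -4.29 and -4.09 in IF1-KO, -4.20, -4.31 and -4.36 in CRL and -4.69, -4.60 and -4.72 in IF1-TG mice. All 3 IF1-TG arrays were below the other 6. The difference was -0.40 (SE 0.12, unadjusted P = 0.011) against IF1-KO and -0.38 (SE 0.12, unadjusted P = 0.013) against CRL, a fold of 1.32 and 1.30, and without IF1-KO replicate 1 the first was -0.48 (SE 0.13). Under normexp with quantile normalization they were -0.18 (SE 0.13) and -0.24 (SE 0.13), past neither threshold. Abcc9, one of the channel partner genes described below and named after its values were seen, had the same order. Its mean level was -1.65 ± 0.09 in IF1-KO, -1.70 ± 0.06 in CRL and -2.04 ± 0.05 in IF1-TG mice (SD), with every IF1-TG array below the other 6. The differences were -0.39 (SE 0.10, unadjusted P = 0.0046) and -0.34 (SE 0.10, unadjusted P = 0.011), and the first was -0.44 (SE 0.12) without IF1-KO replicate 1. The probes of both genes lie on chromosome 6, at chr6:142513487-142513546 for Kcnj8 and chr6:142536920-142536979 for Abcc9. Neither gene passed adjustment over all probes. In bulk tissue, fewer cells of a type and less RNA per cell cannot be told apart. The summed signal of 6 pericyte and endothelial markers was 13.6 to 14.9 in IF1-KO, 13.7 to 16.6 in CRL and 12.5 to 15.1 in IF1-TG mice. None passed both thresholds, but Pecam1, an endothelial gene, passed the P threshold between IF1-TG and IF1-KO, at -0.39 (SE 0.16, unadjusted P = 0.036), a difference as large as those of Kcnj8 and Abcc9. In that comparison the endothelial genes Cldn5, Flt1 and Kdr differed by -0.24, 0.15 and 0.07, and the pericyte genes Rgs5 and Pdgfrb by 0.09 and 0.16. Without IF1-KO replicate 1, Rgs5 turned to -0.36 (SE 0.20), Kdr to -0.02 and Pecam1 to -0.40 (SE 0.19), while Cldn5, Flt1 and Pdgfrb were -0.25, 0.18 and 0.21, and none passed the P threshold. Against CRL, Pecam1, Cldn5, Flt1 and Kdr differed by -0.24, -0.34, 0.20 and 0.17, and Rgs5 and Pdgfrb by -0.33 and 0.45, none past the P threshold. The part of vascular cells in the Kcnj8 and Abcc9 values was not tested. Kcnj11 and Abcc8, which make the ATP-sensitive channel of neurons, differed by -0.03 (SE 0.16) and 0.24 (SE 0.15), past neither threshold.

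Between IF1-TG and CRL mice, Kcnq1 was higher and Kcnf1 was lower. In all, 3 of 85 members were called, 3.53% against 4.31% of all genes, with no gene past Benjamini-Hochberg adjustment in limma (smallest adjusted P of a member 0.385). At an unadjusted P below 0.05 alone, 9 members passed, 10.6% against 8.06% of all genes. Of these, 7 were lower, 8.24% against 3.87%. This comparison shares the IF1-TG arrays with the one above, and 5 of the 7 (Kcnf1, Kcnj15, Kcnj8, Kcnk15 and Kcnq5) have been described. The median difference of the members was -0.04 against 0.00 for all genes, and 37 members were above 0 (43.5% against 49.9% of all genes). Arrays did not overlap for 12 members, 14.1% against 12% of all genes.

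The remaining 2 were voltage-gated alpha subunits. Kcnh1, which encodes the EAG1 channel, read -2.58, -2.43 and -2.29 in CRL mice and -2.95, -2.72 and -3.25 in IF1-TG mice, a difference of -0.54 (SE 0.16, unadjusted P = 0.0092) that is a fold of 1.45. IF1-KO mice lay between, at -2.62, -2.47 and -2.74, and the difference of IF1-TG from IF1-KO was -0.36 (SE 0.16), just short of the P threshold, and -0.37 (SE 0.19) without IF1-KO replicate 1. Kcna3, which encodes Kv1.3, a channel also found in microglia and lymphocytes, read -2.63, -2.73 and -2.83 in CRL and -3.07, -2.87 and -3.14 in IF1-TG mice. Its difference was -0.30 (SE 0.13, unadjusted P = 0.047). The 6 microglial markers had no call in any comparison, and their summed signal, over the 5 measured on every array, was 43.8 to 52.1 in CRL and 47.8 to 59.1 in IF1-TG mice, ranges that overlap. Between IF1-TG and CRL the microglial genes Aif1, Itgam, Tmem119, Cx3cr1, Csf1r and P2ry12 differed by 0.30, 0.17, 0.08, 0.05, 0.05 and -0.35, none past the P threshold. The part of microglia in the Kcna3 value was not tested.

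Kcnq1 encodes Kv7.1, known from the slow delayed rectifier of the heart and from epithelia such as the choroid plexus. Its brightest probe was dim and read -5.09, -5.01 and -5.48 in IF1-KO, -5.76, -6.95 and -5.87 in CRL and -5.15, -5.27 and -4.83 in IF1-TG mice. CRL was below both other genotypes without overlap, and CRL replicate 2, the lowest array, was not well above background. The probe could therefore not enter the filter through CRL mice, so that a lower reading there was in part fixed by the filter. Both Kcnq1 calls and their P carry little weight. The difference from CRL was 1.11 (SE 0.31, unadjusted P = 0.0063) in IF1-TG and 1.00 (SE 0.31, unadjusted P = 0.011) in IF1-KO mice, a fold of 2.15 and 1.99, and both values rest on the same CRL arrays. Without CRL replicate 2 they were 0.73 and 0.62, and without IF1-KO replicate 1 the second was 0.94, all still past both thresholds. The overlapping dimmer probe gave 0.73 and 0.52, of which the first passed both thresholds and the second neither, with CRL at -6.19, -5.77 and -5.88, IF1-KO at -5.87, -4.90 and -5.52 and IF1-TG at -5.61, -4.87 and -5.18. Under normexp background correction followed by quantile normalization the brightest probe gave 0.41 and 0.40, short of the fold threshold. The choroid plexus sum was 121.0 on CRL replicate 2, where the brightest probe read lowest and the dimmer one highest of the CRL arrays, and 8.22 and 3.39 on CRL replicates 1 and 3. Its part in the Kcnq1 values was not tested. Kcnq1ot1, the antisense transcript of the imprinted Kcnq1 locus, differed from CRL by 0.37 (SE 0.25) in IF1-TG and 0.00 in IF1-KO mice.

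Kcnq1 was also the 1 member past both thresholds between IF1-KO and CRL mice, 1.18% against 1.02% of all genes, and the 1 member with an unadjusted P below 0.05, against 2.57% of all genes. No gene passed Benjamini-Hochberg adjustment in limma, where the smallest adjusted P of a member was 1.00. The median difference of the members was 0.03 against -0.01 for all genes, and 49 members were above 0 (57.6% against 46.8% of all genes). The arrays did not overlap for 5 members, 5.88% against 7.97% of all genes: Kcnq1, Kcnh2, Kcnj2, Kcnk1 and Kcnq3. Kcnk1, which encodes TWIK-1, read 1.82 to 1.89 in IF1-KO and 1.91 to 2.00 in CRL mice, a difference of -0.12 (SE 0.12), so that arrays without overlap could still differ by little.

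The comparisons with IF1-KO mice changed when IF1-KO replicate 1 was omitted. Between IF1-TG and IF1-KO the count rose from 3 to 5 members (4.6% of all genes under the same fit), and between IF1-KO and CRL from 1 to 5 (1.65% of all genes), still with no gene past adjustment. Those called between IF1-TG and IF1-KO included Kcnmb4, Kcns1, Kcnj10 and Kcna4, while Kcnf1 and Kcnj15 dropped out, and those between IF1-KO and CRL were Kcnq1, Kcnmb4, Kcns1, Kcnj10 and Kcnh7. The genes in the following account were named after their values were seen. Kcnj10 encodes Kir4.1, the potassium-buffering channel of astrocytes and oligodendrocytes. It read 3.27, 2.22 and 3.06 in IF1-KO, 3.16, 3.56 and 3.32 in CRL and 2.99, 3.45 and 3.49 in IF1-TG mice. IF1-KO replicate 2 was the low array. The difference between IF1-KO and CRL was -0.50 (SE 0.28) with all arrays and -0.71 (SE 0.28) without IF1-KO replicate 1. On IF1-KO replicate 2 the summed signal of 7 oligodendrocyte markers was 80.2, the lowest of the 9 arrays, against 108.2 to 146.3 on the others, while the astrocyte sum was 27.6, within the 27.4 to 32.1 of the others. Their part in the Kcnj10 value was not tested.

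Kcnmb4 encodes the beta4 subunit of the BK channel, the form typical of neurons. It read 3.16, 2.23 and 2.64 in IF1-KO, 3.28, 3.37 and 2.85 in CRL and 3.31, 2.96 and 3.03 in IF1-TG mice, again lowest on IF1-KO replicate 2. Between IF1-KO and CRL it differed by -0.49 (SE 0.25) with all arrays and by -0.73 (SE 0.22) without IF1-KO replicate 1. A dimmer Kcnmb4 probe did not show this, with 0.15 on IF1-KO replicate 2, its highest array, and a difference of -0.04. Kcns1, a silent subunit of Kv2 channels, read -4.16, -2.25 and -2.71 in IF1-KO mice, and its difference from CRL went from 0.22 (SE 0.45) to 0.78 (SE 0.28). Kcnh7, which encodes the ERG3 channel, read -5.77, -4.32 and -4.66, and its difference went from 0.54 (SE 0.42) to 0.97 (SE 0.36). In both, IF1-KO replicates 2 and 3 were above all CRL arrays, while IF1-KO replicate 1 was below all of them for Kcns1 and below 2 of them for Kcnh7. Kcna4, which encodes Kv1.4, an inactivating axonal channel, went from 0.47 (SE 0.25) to 0.64 (SE 0.27) between IF1-TG and IF1-KO.

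**Figure D3:**
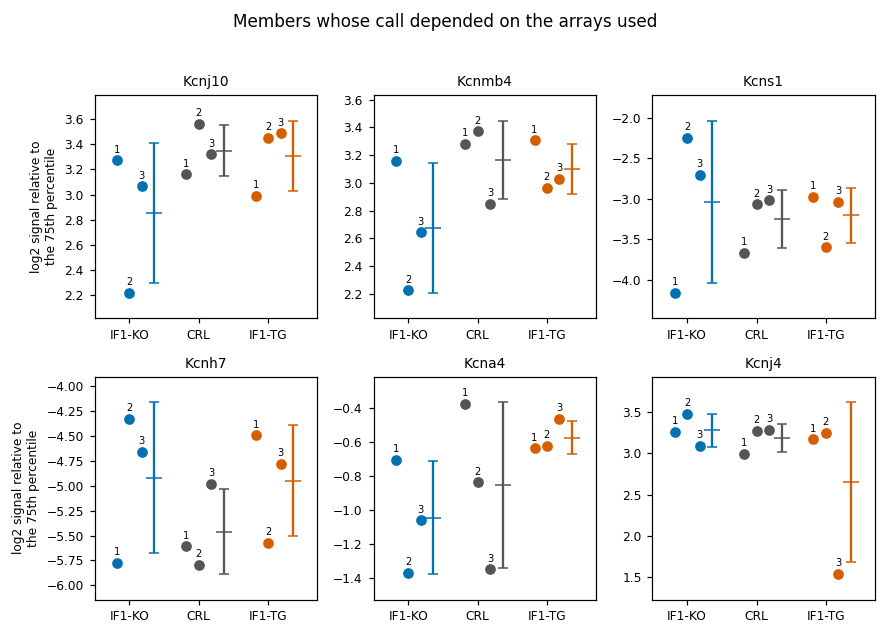
Log2 signal relative to the array's 75th percentile (vertical axes, 1 scale per panel) by genotype for 6 members whose call depended on which arrays or which slide term were used; points are single arrays marked with their replicate number, bars the mean and SD of 3 arrays. IF1-KO replicate 1 is apart from IF1-KO replicates 2 and 3 in Kcns1 and Kcnh7, IF1-KO replicate 2 is low in Kcnj10 and Kcnmb4, and IF1-TG replicate 3 is low in Kcnj4.

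Slide was another division of the arrays. Slide 2 held all 3 genotypes, and within it all members with an unadjusted P below 0.05 had the sign they had over all arrays (6, 9 and 1 in the 3 comparisons). These members were selected on differences that include the same arrays, mostly without overlap between genotypes, so their signs within a slide were largely fixed by the selection and support nothing. Slide 1 held IF1-TG arrays alone, so with slide as a fixed block the differences of IF1-TG mice rest on IF1-TG replicate 3. In that fit 8 members passed between IF1-TG and IF1-KO (4.79% of all genes) and 10 between IF1-TG and CRL (7.25% of all genes). Calls were also lost. Between IF1-TG and IF1-KO, Kcnf1 went to -0.39 (SE 0.62) and Kcnj15 to -0.47 (SE 0.28), and between IF1-TG and CRL Kcnf1 went to -0.56 (SE 0.57), none past a P of 0.05, and Kcnq1 was 1.42 (SE 0.48). With 1 array behind the IF1-TG differences, neither calls kept nor calls lost in this fit say anything of stability. Among the calls gained were members in which IF1-TG replicate 3 stood apart from its partners. Kcnj4, which encodes Kir2.3, read 1.54 on IF1-TG replicate 3 and between 3.00 and 3.48 on the other 8 arrays. Kcng1, a silent subunit, read 0.59 there, -1.23 on IF1-TG replicate 1 and -0.61 to -0.34 on the others. Kcnk12 read -0.21 there and -1.31 to -0.96 elsewhere. None of these 3 passed with all arrays and no slide term, where their differences from IF1-KO were -0.63 (SE 0.41), 0.09 (SE 0.38) and 0.37 (SE 0.23).

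By family, among 7 Kv1 alpha subunits, which are mostly axonal, none was called in any comparison. Kcna1 read 2.81 to 2.98 in IF1-KO, 2.95 to 3.13 in CRL and 2.96 to 3.14 in IF1-TG mice, and the 95% interval of the difference between IF1-TG and IF1-KO ran from -0.12 to 0.40. Kcnd2, the Kv4.2 subunit of the dendritic A-type current, differed by -0.06 (95% interval -0.32 to 0.19) between the same genotypes. The 3 Kv beta subunits and the 4 KChIP subunits, cytosolic partners of Kv1 and Kv4 channels, had no call, and their medians between IF1-TG and IF1-KO were -0.18 and -0.04. Of 9 silent subunits, Kcnf1 alone was called.

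The KCNQ family included Kcnq1, Kcnq3 and Kcnq5. Kcnq3, a subunit of the main M channel, differed between IF1-TG and IF1-KO by 0.11 (95% interval -0.12 to 0.35), while Kcnq5 was lower, as given above. Kcnq3 had the smallest spread of all members, with a pooled SD of 0.059. The 8 EAG, ERG and ELK members had no call, and their differences ran from -0.37 to 0.52 between IF1-TG and IF1-KO, from -0.54 to 0.51 between IF1-TG and CRL and from -0.36 to 0.54 between IF1-KO and CRL. The 3 KCNE members, small partners of Kv channels, had no call either, with medians of -0.03, -0.09 and -0.09 in the 3 comparisons.

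Among 10 calcium- and sodium-activated members none was called with all arrays. Kcnma1, the pore of the BK channel, read 3.85 to 4.18 in IF1-KO, 3.79 to 3.97 in CRL and 3.95 to 3.97 in IF1-TG mice, and the interval between IF1-TG and IF1-KO ran from -0.34 to 0.20. Kcnn2, the pore of the SK2 channel, differed by -0.14 (-0.43 to 0.15). Among 13 inward rectifiers, Kcnj15 alone was called. The G protein-gated subunits Kcnj3, Kcnj6 and Kcnj9 differed by -0.16, 0.12 and 0.08, none past a threshold. Among 11 two-pore domain members none was called, and Kcnk1 differed by -0.01 (-0.29 to 0.26). The other 4 names, Kcnd3os, Kcnmb4os2, Kcnq1ot1 and Kcnrg, had no call.

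**Figure D4:**
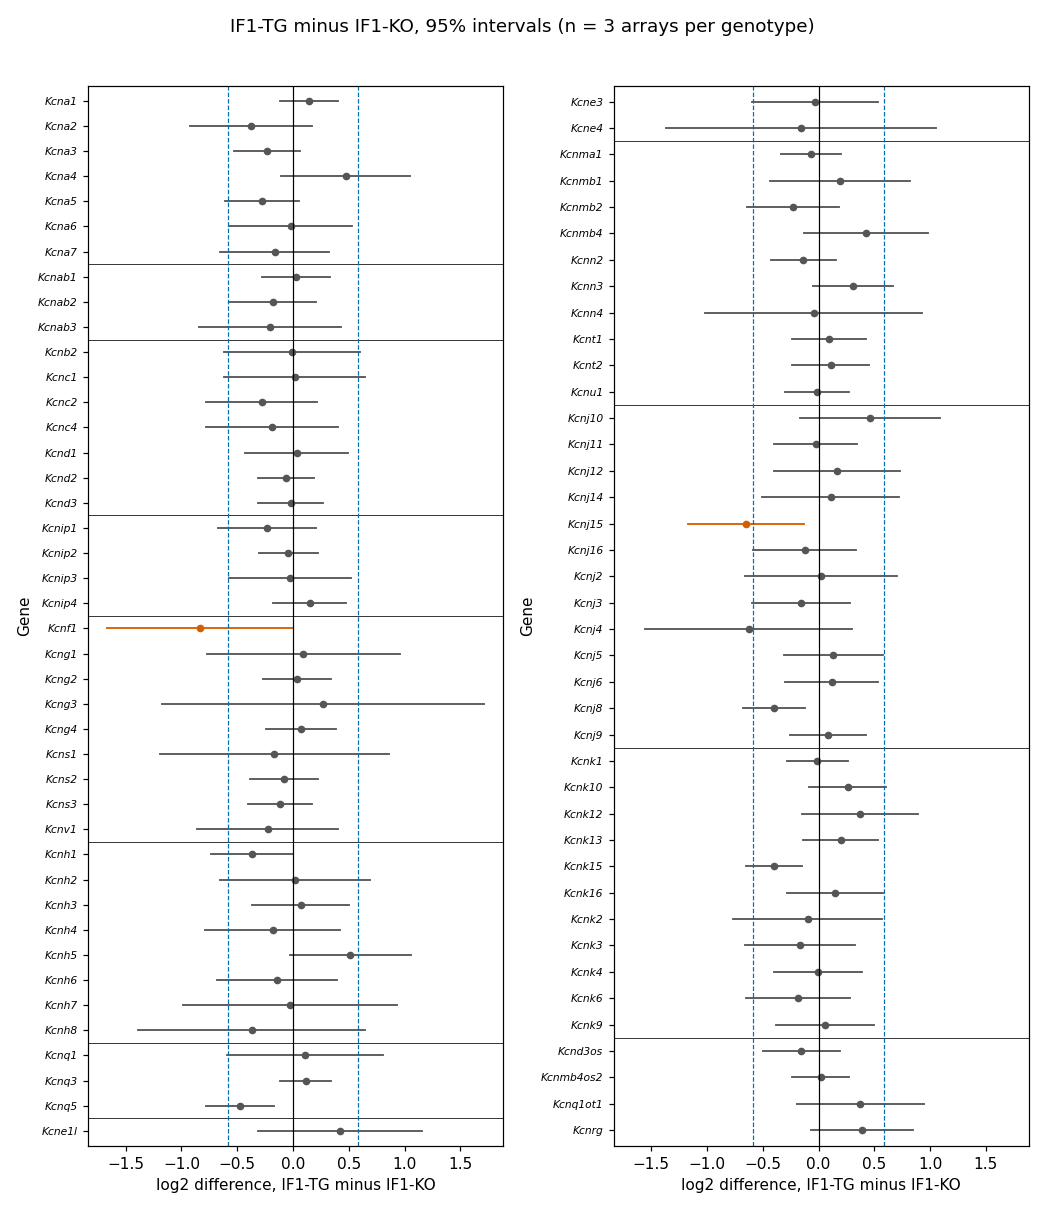
Horizontal axis, log2 IF1-TG minus IF1-KO difference with its 95% limma interval, for the members shown, grouped by family (horizontal lines); dashed lines mark a 1.5-fold change in either direction and orange the members past both thresholds. The intervals of Kcnf1 and Kcnj15 lie wholly below 0, and those of Kcng3, Kcne4, Kcns1 and Kcnh8 are among the widest.

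The intervals show how far a missing call goes. Between IF1-TG and IF1-KO, the 95% interval lay within a 1.5-fold change in both directions for 34 of 85 members (40% against 46.5% of all genes) and within a 2-fold change for 72. Between IF1-TG and CRL these were 33 (38.8% against 45.7%) and 69, and between IF1-KO and CRL 42 (49.4% against 50.5%) and 69. Without IF1-KO replicate 1, the intervals of 23, 34 and 29 members lay within a 1.5-fold change in the 3 comparisons, with medians of the differences at -0.02, -0.04 and 0.02. For the other members a 1.5-fold difference lay within the interval. The pooled SD within genotypes had a median of 0.26 over the members and 0.24 over all genes, was under 0.2 for 30 members and over 0.5 for 9, and was highest for Kcng3, at 0.91. Single arrays made part of this spread. IF1-KO replicate 2 was the highest array for 20 members and the lowest for 14, while IF1-KO replicate 3 was the highest for 2 and the lowest for 6.

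A second reading was available for 27 members with more than 1 kept probe. A dimmer probe had the opposite sign to the brightest one in 12 of 27 members between IF1-TG and IF1-KO and in 13 of 27 in each of the other comparisons, and it differed by at least 1.5-fold in 5, 6 and 2. Dimmer probes past both thresholds, which were named after their values were seen, included those of Kcng1 between IF1-TG and IF1-KO, of Kcna5, Kcnk4 and Kcnq1 between IF1-TG and CRL, and of Kcna5 between IF1-KO and CRL. In Kcna5, which encodes Kv1.5, the dimmer probe read -5.85, -5.84 and -5.92 in IF1-KO, -5.30, -5.32 and -4.51 in CRL and -6.87, -5.93 and -6.70 in IF1-TG mice. The difference between IF1-TG and CRL was -1.46 (unadjusted P = 0.00074), with 1 of 3 IF1-TG arrays well above background. This probe could not enter the filter through IF1-TG mice, so that a lower reading there was in part fixed by the filter. The size and P of that difference carry little weight. The brightest Kcna5 probe gave 0.02.

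Genes that work with these channels gave no call. Of 25 partners (sulfonylurea receptors, HCN channels, the Kv4 partners Dpp6 and Dpp10, Kv1 and Kv2 scaffolds and others), 22 were tested, since Hcn4, Lrrc26 and Lrrc52 were not well above background. None passed both thresholds in any of the 3 comparisons, and their medians were 0.01, 0.01 and 0.03. By P alone, besides Abcc9, Cntn2, a partner of axonal Kv1 channels, was higher in IF1-TG than CRL mice by 0.48 (SE 0.16, unadjusted P = 0.017), and Akap9, a scaffold gene, was lower in IF1-KO than CRL mice, at -0.46 (SE 0.20, unadjusted P = 0.049). Without IF1-KO replicate 1 the Akap9 difference was -0.33 (SE 0.22), past neither threshold. Dpp6 differed between IF1-TG and IF1-KO by 0.12 and Hcn2 by 0.24. Among markers of other cells and regions, no gene passed both thresholds in the lists for excitatory neurons, interneurons, astrocytes, oligodendrocytes, microglia, pericytes and endothelium or choroid plexus. By P alone, Pecam1 passed as given above, and Cnp, an oligodendrocyte gene, was higher in IF1-TG mice by 0.49 (SE 0.13, unadjusted P = 0.0052) against IF1-KO and 0.45 (SE 0.13, unadjusted P = 0.0089) against CRL. The striatal gene Adora2a was lower than in CRL in both other genotypes and the thalamic gene Lef1 was higher in IF1-TG than CRL mice, past both thresholds. The pituitary genes Gh and Prl were well above background on CRL arrays alone and entered the filter through them, so that lower readings in the other genotypes were in part fixed by the filter. Their measured differences between IF1-TG and CRL were -3.60 and -3.46.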

How the data were processed

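RNA of 9 hippocampi was labelled with Cy3 and hybridized to Agilent mouse arrays with 39429 gene probes. The authors deposited Feature Extraction (version 10.7.3.1) spot intensities with the background subtracted within each array and no normalization between arrays; mean and local background intensities served for an alternative. Genotype, replicate and age come from the labels, slide from the files, and probe positions (mm9) from the deposited annotation. Control and outlier spots were left out, no gene spot was saturated, and log2 intensity was taken relative to the 75th percentile of each array. Spots of a probe were averaged, and 27991 probes well above background on all 3 arrays of a genotype were kept. All 9 arrays entered 1 fit with genotype in limma 3.58.1 (R 4.3.3, lmFit and eBayes), with Benjamini-Hochberg adjustment over all probes. P values are unadjusted unless stated, measure the spread between mice, and 3 arrays per genotype limit the precision. The fit was tested on simulated data with known shifts.

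Some genes that the counts include are not reported here by name, value or picture. A gene is given by its probe with the highest mean. Levels per array are given for members past both thresholds and for those with P below 0.05; ranges or intervals are given for some of a list of 24 channels known in the hippocampus. Members and lists were chosen with earlier results of these data known, so counts are descriptions. All 85 member names matched a RefSeq symbol. Alternatives were normexp (offset 50) with quantile normalization, quantile normalization alone, no filter or a filter on all 9 arrays, a fixed or random block for slide, replicate number as a block, only the arrays of 2 genotypes, trend and robust settings of eBayes, probes averaged per gene, and each array left out. Cell type lists covered excitatory neurons, interneurons, astrocytes, oligodendrocytes, microglia, pericytes and endothelium, choroid plexus, striatum, thalamus and pituitary; their sums are linear signals relative to the 75th percentile, over genes measured on all 9 arrays.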

Additional observations from a re-analysis of the deposited data

How the results depend on the processing

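With all arrays, 3, 3 and 1 members were called between IF1-TG and IF1-KO, IF1-TG and CRL, and IF1-KO and CRL. Normexp with quantile normalization gave 1 and 0 for the first and the last, and a filter on all 9 arrays gave 0 for the last, because the dimmer Kcnq1 probe then stood for the gene. No filter on dim probes gave 5 of 96 between IF1-TG and CRL, where 11.8% of all genes were called. The mean of a gene's probes gave 2 between IF1-KO and CRL. Slide as a fixed block gave 8 and 10 members and 1 and 3 partner genes in the comparisons with IF1-TG, and turned the median difference of the members between IF1-TG and CRL from -0.04 to 0.054. With single arrays left out, the counts were 0 to 6, 2 to 5 and 1 to 5, the medians -0.04 to 0.03, -0.06 to 0.00 and -0.02 to 0.04, and the partner genes 0 to 1 in each comparison. No member was called between IF1-TG and IF1-KO without IF1-TG replicate 1. Each difference past a threshold was recomputed under 18 or 19 alternatives. Those past both thresholds gave 132 such values, of which 40 lost the P threshold. Those past P alone gave 168 values, of which 40 did. None of these values changed sign, but they reuse arrays on which the differences were selected. The replicate numbers did not pair the arrays: correlations of deviations between same-numbered arrays were -0.17 to 0.12, and 0 arrays correlated best with their own number. The replicate block gave 1 member called between IF1-TG and IF1-KO in place of 3, Kcnj15, and 2 and 1 in the other comparisons. Kcnq1, Kcnj15 and Kcnk15 were read by probes near background, which limits the precision of their values.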
